A study of Saccharomyces cerevisiae with 12 samples.

Results

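The genes described here are 34 yeast genes of sulfate assimilation, methionine, cysteine and S-adenosylmethionine (AdoMet) metabolism, together with the regulators that control them, among them CBF1. They were chosen by gene symbol. Each of the 34 symbols matched 1 of the 6388 gene probes of the array. Wild-type cells of strain BY4742 (mating type alpha, lacking HIS3, LEU2, LYS2 and URA3) doubled 2 times in used medium. This medium (synthetic complete, 2% glucose) was taken from an earlier culture of a deletion strain or of wild type. The media came from strains deleted for CBF1 or NPL3 (set 1, beside a wild-type medium of its own) and for BUR2 or CHO2 (set 2, beside a second wild-type medium), which gives 6 groups of 2 arrays. The recipient cells were wild type in every group, so no sample carried a deletion in the genes described. On every array the sample was hybridised together with 1 common reference RNA, made from a single large wild-type culture. By the labels of each array, which are followed here, the first array of each group had the sample in Cy3 and the second in Cy5. The general design description puts the sample in Cy5 on the first array. Were that so for all arrays, every ratio and difference below would change its sign, with no change in size or in the number of calls. Whether the arrays of a group were separate cultures or the same RNA labelled again is not settled by the sources, so n counts arrays. The p-values, SEs and intervals may therefore measure technical spread only. The labels do not say how many cultures of a deletion strain made a medium.

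In yeast, sulfate is taken up and reduced to sulfide, which is joined to a carbon chain from homoserine to make homocysteine, the precursor of both methionine and cysteine. Methionine is activated to AdoMet, the main methyl donor of the cell, and AdoMet use returns homocysteine. The pathway's genes are switched on by the activator Met4, which is brought to DNA by Cbf1 or by the paired proteins Met31 and Met32, with Met28 as a cofactor, and is held back by the ubiquitin ligase subunit Met30 when methionine and AdoMet are plentiful. Cells without Cbf1 require methionine. Cho2, in turn, uses AdoMet to methylate a phospholipid. Npl3 is an RNA-binding protein of mRNA processing and export, and Bur2 is the cyclin partner of Bur1, a kinase of transcription elongation.

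Values are log2 ratios of sample over reference, and where the arrays of a group are listed, the first array is given before the second. Of the 34 genes, 22 had a signal over 2 times the local background in both channels on all 12 arrays, against 4699 of all 6388 probes, 8 genes on some arrays and 4 on none. The 4 were the sulfate permease genes SUL1 and SUL2, the S-methylmethionine permease gene MMP1 and the regulator gene MET31, and SUL1, at 1.01 to 1.05 times background in the dimmer channel, was close to the limit of the array. No spot of these genes was saturated. Set 1 was brighter than set 2, with a median signal of 327 to 507 in Cy5 and 254 to 367 in Cy3 in set 1 and of 185 to 264 and 170 to 193 in set 2. The alpha-specific genes MF(ALPHA)1, MF(ALPHA)2, STE3 and SAG1 read 29.1 to 443 times background in the samples. The probe of the a-specific gene MFA2 and those of the deleted genes LEU2 and URA3 were at most 1.35 times background. The probe of the deleted gene LYS2 reached 3.07. Those of the other a-specific genes measured, STE2, ASG7, MFA1, STE6 and BAR1, reached 3.25, 3.22, 2.18, 2.07 and 2.05. A sample signal over 2 times background was thus also read for genes deleted or not expected in these cells. All ratios of the 34 genes lay between -0.41 and 0.25.

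**Figure D1:**
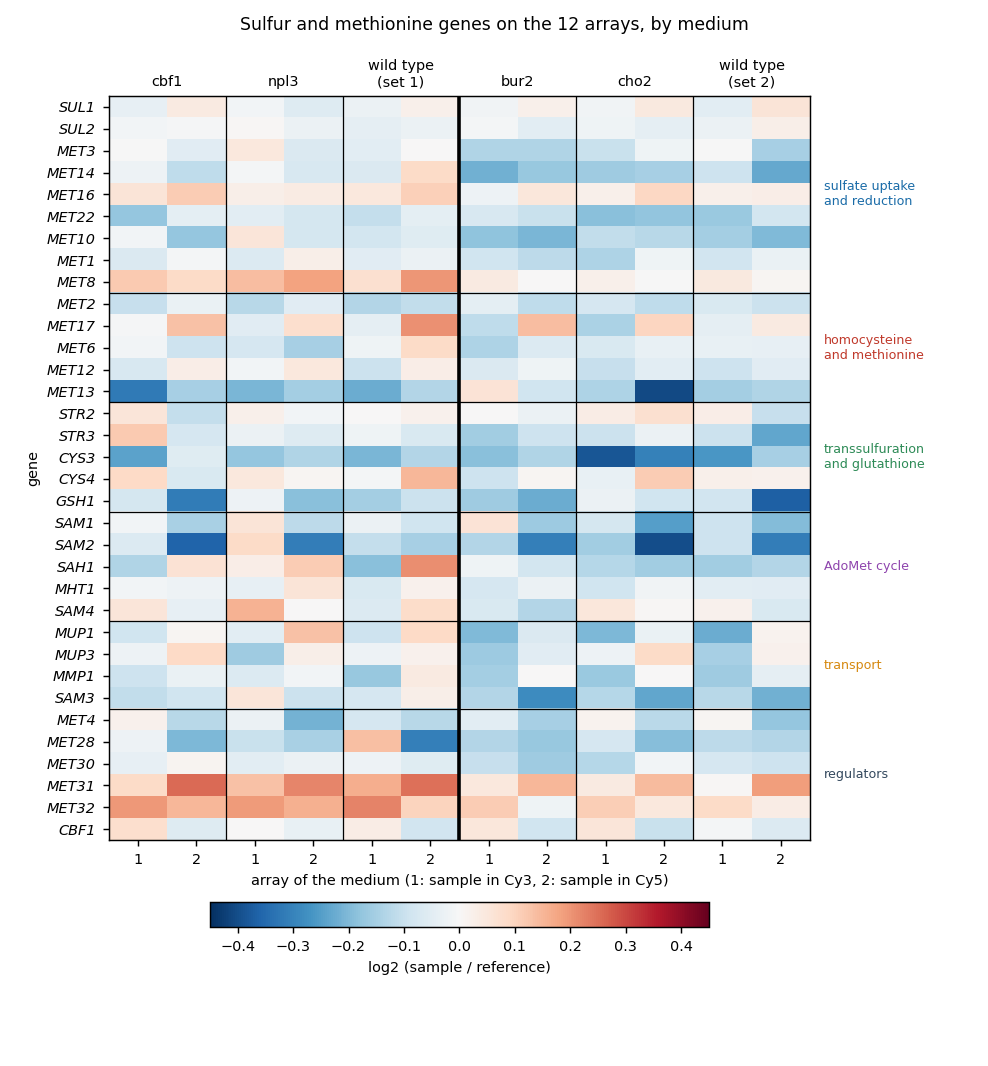
Each cell is the log2 ratio of sample over reference of 1 gene (rows, by role) on 1 array (columns, by medium, set 1 left of the thick line and set 2 right of it). Most cells are pale, the rows of CYS3, SAM2 and MET13 are mostly blue (lower than the reference) with lowest values of -0.38, -0.40 and -0.41, and the row of MET31 is red on all 12 arrays.

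The first question was whether medium used by a strain without Cbf1 altered the expression of Cbf1's own target pathway in healthy cells. In cbf1 medium, none of the 34 genes differed from wild-type medium past the test: limma called 0 of 34, against 0% of all 6388 probes, and 0 of the 34 had an unadjusted p under 0.05, against 85 of all probes. The estimated differences ran from -0.086 to 0.062, with 15 genes above 0, 19 below and a median of -0.011, against a median of 0.00085 over all probes. The arrays of cbf1 medium and of wild-type medium did not overlap for 3 genes, where 10.5% of all probes did not overlap. These were SUL2 (0.025 ± 0.035, where every ± between media is an SE and n = 2 arrays in each group) and the homoserine acetyltransferase gene MET2 (0.055 ± 0.044), both higher, and the AdoMet permease gene SAM3 (-0.076 ± 0.063), which was lower. The median over the list had no settled sign: it was 0.022 with wild-type array 2 of set 1 left out and -0.046 with array 1 left out.

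In npl3 medium, limma called 0 of 34 genes (0% of all probes), with 1 gene and 181 of all probes at an unadjusted p under 0.05. The differences ran from -0.15 for MET6 to 0.069 for SAM4, with a median of 0.014, which was -0.022 without the first wild-type array. Only MET6, the methionine synthase gene, and MET16, the PAPS reductase gene, had arrays that did not overlap with wild-type medium, 2 genes where 14.6% of all probes did not overlap. In bur2 medium, limma likewise called 0 of 34 (0% of all probes), with 0 genes and 242 of all probes at an unadjusted p under 0.05. Differences ran from -0.074 to 0.13, with a median of -0.0081, and 6 genes did not overlap with wild-type medium, where 19.1% of all probes did not. In cho2 medium, 0 of 34 were called (0% of all probes), with 2 genes and 126 of all probes at an unadjusted p under 0.05. Differences ran from -0.14 for CYS3 to 0.17 for GSH1, with a median of -0.00066, and 5 genes did not overlap, where 17% of all probes did not.

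The limits these arrays set on a change were narrow for genes well above background. For all 34 genes and all 4 deletion-strain media, the 95% interval stayed inside a 1.7-fold change in both directions, the fold limit the study used for its expression changes. If the arrays of a group were the same RNA labelled again, these intervals hold technical spread only. They would then not bound a change between cultures. The lowest bound was -0.35, for MET13 in cho2 medium, and the highest 0.34, for MET13 in bur2 medium and also for GSH1 in cho2 medium. This was not particular to these genes. Of all 6388 probes, the interval stayed inside a 1.7-fold change for 6383 in cbf1 medium, 6377 in npl3 medium, 6383 in bur2 medium and 6386 in cho2 medium. The background correction adds a constant to every spot, which draws the ratios of dim spots toward 0, so the intervals do not bound the real change of SUL1, SUL2, MMP1 and MET31. This caution also covers in part the 8 genes above 2 times background on some arrays only. The dimmest of these were MET2 and MET32, with medians of 1.63 and 1.69 times background in the dimmer channel. STR3, over 2 times background on all arrays, read 2.18 to 3.66 times in that channel. The probes of the deleted gene LYS2 and the a-specific gene STE2 also reached 3.07 and 3.25 times, so the caution extends to STR3. With a constant of 10 in place of 50, and in 7 other ways of processing, the intervals of all genes tested stayed within the same limit.

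**Figure D2:**
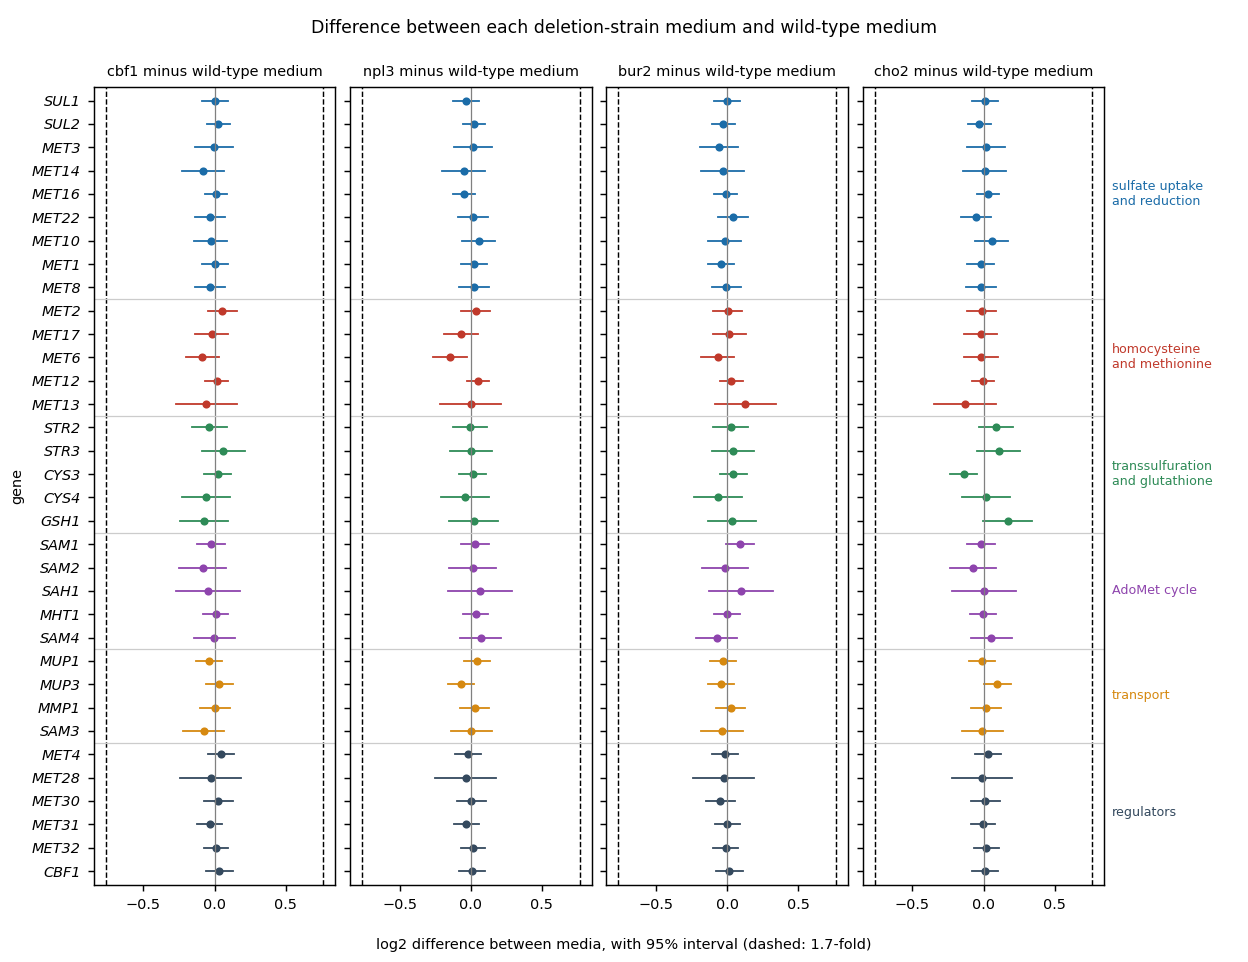
Each panel gives the log2 difference between 1 deletion-strain medium and the wild-type medium of its set (horizontal axis) for the 34 genes (rows, coloured by role), with lines for the 95% interval and dashed lines at 1.7-fold. All intervals lie between the dashed lines, and those that leave out 0 belong to MET6 in npl3 medium and to CYS3 and MUP3 in cho2 medium.

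Sulfate uptake and reduction was represented by 9 genes, of which 0 were called in any deletion-strain medium. They are the permease genes SUL1 and SUL2, the ATP sulfurylase gene MET3, the APS kinase gene MET14, the PAPS reductase gene MET16, the nucleotidase gene MET22, which clears the by-product of that step, the sulfite reductase gene MET10, and MET1 and MET8, which make siroheme for sulfite reductase. Their medians were -0.0029 in cbf1 medium, 0.016 in npl3 medium, -0.018 in bur2 medium and 0.0067 in cho2 medium, each relative to wild-type medium. The widest differences of the group were -0.080 ± 0.065 for MET14 in cbf1 medium and -0.058 ± 0.058 for MET3 in bur2 medium. In bur2 medium 8 of the 9 lay below wild-type medium, yet MET1 was the only one whose arrays did not overlap, at -0.045 ± 0.041. In cho2 medium MET22 lay lower (-0.056 ± 0.046) and MET10 higher (0.057 ± 0.050) than on any wild-type array of the set. In npl3 medium MET16 read 0.026 and 0.037, against 0.046 and 0.11 in wild-type medium, a difference of -0.045 ± 0.034 (adjusted p = 1.000). MET8 read 0.12 and 0.088 in cbf1 medium, 0.14 and 0.18 in npl3 medium and 0.073 and 0.20 in their wild-type medium. It read 0.040 and 0.0031 in bur2 medium, 0.023 and -0.00023 in cho2 medium and 0.043 and 0.010 in wild-type medium of set 2. For MET8, all 4 deletion-strain media thus overlapped with their wild-type medium, and the gene stood higher in all 6 arrays of set 1 than in the 6 of set 2, while its signal in the dimmer channel was at most 2.47 times background.

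Homocysteine and methionine synthesis was represented by MET2, by the O-acetylhomoserine sulfhydrylase gene MET17, by the methionine synthase gene MET6, and by MET12 and MET13, which encode methylenetetrahydrofolate reductases. MET6 had the smallest p of the 34 genes in cbf1 medium and in npl3 medium. It read -0.014 and -0.092 in cbf1 medium and -0.075 and -0.15 in npl3 medium, against -0.019 and 0.085 in their wild-type medium. The arrays of cbf1 medium overlapped with wild-type medium, those of npl3 medium lay below it, and the second wild-type array was the only 1 of the 12 on which MET6 was above the reference. The differences were -0.086 ± 0.051 in cbf1 medium and -0.15 ± 0.051 in npl3 medium (limma, adjusted p = 1.000 in both), and both rest on the same wild-type arrays. With 1 array left out at a time, they ranged from -0.14 to -0.030 in cbf1 medium and from -0.20 to -0.089 in npl3 medium. In set 2, MET6 read -0.14 and -0.063 in bur2 medium and -0.070 and -0.033 in cho2 medium, against -0.033 and -0.036 in wild-type medium.

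MET2 read -0.10 and -0.029 in cbf1 medium and -0.12 and -0.050 in npl3 medium, against -0.13 and -0.11 in wild-type medium. Both arrays of cbf1 medium were higher than both of wild-type medium, though the probe was dim, at 1.35 to 2.11 times background in the dimmer channel, and the difference ranged from 0.014 to 0.097 with 1 array left out. In set 2 it read -0.044 and -0.11 in bur2 medium, -0.077 and -0.12 in cho2 medium and -0.070 and -0.10 in wild-type medium, and the groups overlapped. MET13 read 0.060 and -0.090 in bur2 medium and -0.14 and -0.41 in cho2 medium, against -0.15 and -0.13 in wild-type medium. Both arrays of bur2 medium were higher than wild-type medium, and of those of cho2 medium, which were 0.27 apart, the first lay between the wild-type arrays and the second below both. The differences were 0.13 ± 0.095 in bur2 medium (adjusted p = 0.999) and -0.13 ± 0.095 in cho2 medium (adjusted p = 1.000), and MET13 in bur2 medium ranged from 0.046 to 0.21 with 1 array left out. In set 1, MET13 read -0.32 and -0.15 in cbf1 medium, -0.21 and -0.15 in npl3 medium and -0.22 and -0.13 in wild-type medium.

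MET17, often used to report on this pathway, read -0.0063 and 0.13 in cbf1 medium and -0.050 and 0.076 in npl3 medium, against -0.042 and 0.21 in wild-type medium. In set 2 it read -0.12 and 0.14 in bur2 medium and -0.14 and 0.10 in cho2 medium, against -0.042 and 0.040 in wild-type medium. The groups overlapped in every pair of media of a set, and in each of the 6 media the second array was the higher one. Its differences from wild-type medium were -0.020 ± 0.051 in cbf1 medium, -0.069 ± 0.051 in npl3 medium, 0.013 ± 0.051 in bur2 medium and -0.021 ± 0.051 in cho2 medium. MET12 stayed between -0.0031 and 0.051 in the same comparisons, with 0.051 ± 0.035 in npl3 medium the largest.

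Transsulfuration and glutathione synthesis held the genes with the widest differences in cho2 medium, none of which passed the test. CYS3, the cystathionine gamma-lyase gene that makes cysteine, read -0.38 and -0.30 in cho2 medium and -0.19 and -0.14 in bur2 medium, against -0.26 and -0.15 in wild-type medium. Both arrays of cho2 medium were the lowest of the 12 for this gene. The difference from wild-type medium was -0.14 ± 0.041, 1.10-fold lower (95% interval -0.23 to -0.045, limma, unadjusted p = 0.00920, adjusted p = 1.000), and it stayed between -0.15 and -0.13 with 1 array left out. CYS3 read -0.24 and -0.053 in cbf1 medium and -0.18 and -0.13 in npl3 medium, against -0.21 and -0.13 in their wild-type medium, with overlap in both. The difference in cbf1 medium exceeded that in cho2 medium by 0.16 ± 0.058, which did not pass (adjusted p = 0.999). Relative to wild-type medium, the cho2 medium values of GSH1, STR3 and STR2 lay the other way from CYS3. GSH1, which encodes the first enzyme of glutathione synthesis, read -0.027 and -0.089 in cho2 medium and -0.16 and -0.22 in bur2 medium, against -0.088 and -0.37 in wild-type medium. The arrays of cho2 medium overlapped barely with wild-type medium, whose second array was the lowest of the set, and the difference was 0.17 ± 0.074 (adjusted p = 1.000). In set 1, GSH1 read -0.079 and -0.31 in cbf1 medium, -0.022 and -0.19 in npl3 medium and -0.15 and -0.10 in wild-type medium. STR2 and STR3, for the steps that turn cysteine into homocysteine, had differences of 0.088 ± 0.053 and 0.11 ± 0.065 in cho2 medium, without overlap. CYS4, the cystathionine beta-synthase gene, differed by 0.018 ± 0.074 in cho2 medium and by -0.064 ± 0.074 in bur2 medium.

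**Figure D3:**
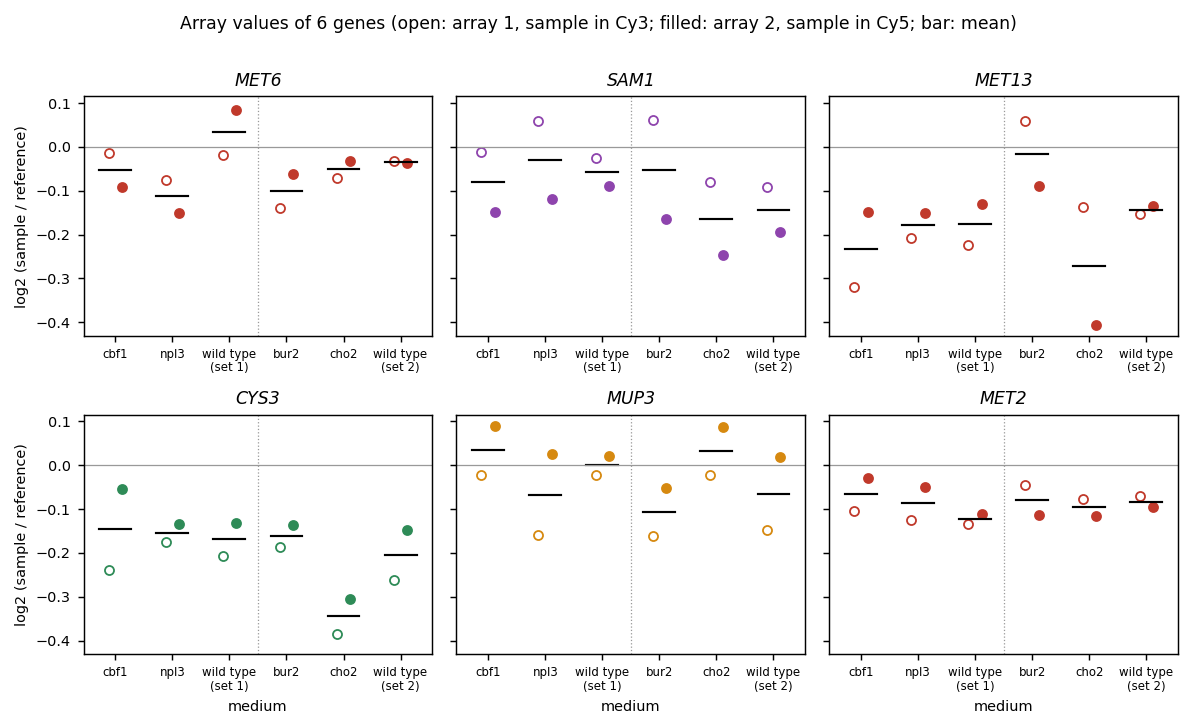
Each panel shows 1 gene, with the log2 ratio of sample over reference (vertical axis) on the first array (open circle, sample in Cy3) and the second (filled circle, sample in Cy5) of each medium and the mean of both as a bar, set 1 left of the dotted line. CYS3 is lowest in cho2 medium, at -0.38 and -0.30, and MUP3 and SAM1 show a gap between open and filled circles in every medium.

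The AdoMet cycle genes were SAM1 and SAM2, for the paired AdoMet synthetases, SAH1, for the hydrolase that returns homocysteine, and MHT1 and SAM4, for enzymes that methylate homocysteine. SAM1 had the smallest p of the 34 genes in bur2 medium. It read 0.062 and -0.17 in bur2 medium and -0.079 and -0.25 in cho2 medium, against -0.092 and -0.19 in wild-type medium. These groups overlapped, and the difference in bur2 medium was 0.091 ± 0.043 (adjusted p = 0.999), with a range of 0.042 to 0.14 when 1 array was left out. In set 1 it read -0.011 and -0.15 in cbf1 medium, 0.059 and -0.12 in npl3 medium and -0.025 and -0.089 in wild-type medium. SAM2 read -0.063 and -0.36 in cbf1 medium and 0.085 and -0.31 in npl3 medium, against -0.11 and -0.15 in wild-type medium. In set 2 it read -0.13 and -0.31 in bur2 medium and -0.16 and -0.40 in cho2 medium, against -0.094 and -0.31 in wild-type medium. The second array was the lower one in every medium for both genes, and the media of a set overlapped. SAM1 and SAM2 are close copies of each other, so their probes may take up each other's RNA, which was not tested. The wild-type arrays of set 1 were far apart for SAH1, at -0.19 and 0.21, and its differences lay between -0.045 ± 0.098 in cbf1 medium and 0.094 ± 0.098 in bur2 medium. SAM4 differed by 0.069 ± 0.063 in npl3 medium and by -0.074 ± 0.063 in bur2 medium, and MHT1 by at most 0.035 ± 0.039.

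The transport genes were MUP1 and MUP3, for a high-affinity and a low-affinity methionine permease, MMP1, for the S-methylmethionine permease, and SAM3, for the AdoMet permease. MUP3 read -0.022 and 0.087 in cho2 medium and -0.16 and -0.051 in bur2 medium, against -0.15 and 0.019 in wild-type medium. The first arrays of cho2 medium and wild-type medium differed more than the second, and the groups overlapped. The difference in cho2 medium was 0.098 ± 0.040 (limma, unadjusted p = 0.0409, adjusted p = 1.000), between 0.069 and 0.13 with 1 array left out. In set 1, MUP3 read -0.022 and 0.091 in cbf1 medium and -0.16 and 0.025 in npl3 medium, against -0.021 and 0.021 in wild-type medium, and the difference in npl3 medium was -0.067 ± 0.040, between -0.11 and -0.020 with 1 array left out. The MUP3 probe was near background, at 1.65 to 2.51 times in the dimmer channel. MUP1 differed by -0.041 ± 0.040 in cbf1 medium, 0.043 ± 0.040 in npl3 medium, -0.029 ± 0.040 in bur2 medium and -0.013 ± 0.040 in cho2 medium. MMP1 lay between 0.0032 and 0.027 in all 4, and SAM3 between -0.076 and 0.0040.

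The 6 regulators differed from wild-type medium by -0.048 to 0.046 over the 4 deletion-strain media, and 0 were called. CBF1 itself, intact in these cells, read 0.075 and -0.056 in cbf1 medium and 0.0013 and -0.032 in npl3 medium, against 0.035 and -0.086 in wild-type medium. In set 2 it read 0.051 and -0.091 in bur2 medium and 0.053 and -0.10 in cho2 medium, against -0.010 and -0.062 in wild-type medium. All groups overlapped, and the difference in cbf1 medium was 0.035 ± 0.040 (95% interval -0.057 to 0.13, adjusted p = 1.000). MET4, the gene of the activator, read 0.019 and -0.13 in cbf1 medium and -0.025 and -0.21 in npl3 medium, against -0.074 and -0.13 in wild-type medium. In set 2 it read -0.049 and -0.15 in bur2 medium and 0.014 and -0.12 in cho2 medium, against 0.0078 and -0.17 in wild-type medium. The MET4 arrays overlapped in each of the 4 comparisons, and the second array of each medium was the lower one. Its differences were 0.046 ± 0.040 in cbf1 medium, -0.018 ± 0.040 in npl3 medium, -0.017 ± 0.040 in bur2 medium and 0.030 ± 0.040 in cho2 medium. MET31 and MET32 encode related zinc finger proteins that bring Met4 to its target promoters. MET31 read 0.087 and 0.25 in cbf1 medium and 0.13 and 0.22 in npl3 medium, against 0.16 and 0.25 in wild-type medium. It read 0.048 and 0.15 in bur2 medium and 0.040 and 0.14 in cho2 medium, against 0.0056 and 0.19 in wild-type medium. MET32 read 0.20 and 0.15 in cbf1 medium and 0.19 and 0.16 in npl3 medium, against 0.22 and 0.10 in wild-type medium. Both genes overlapped between the media of set 1. MET32 read 0.12 and -0.020 in bur2 medium and 0.11 and 0.049 in cho2 medium, against 0.086 and 0.032 in wild-type medium, again with overlap. MET31 was above the reference on all 12 arrays, but its signal in the dimmer channel was 1.27 to 1.87 times background, and that of MET32 1.42 to 2.14 times. MET28 had the least precise differences of the regulators (SE 0.093), with its wild-type arrays of set 1 at 0.14 and -0.31, and MET30 lay between -0.048 and 0.027.

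The deletion-strain media of a set were also compared with each other. Between cbf1 and npl3 medium, limma called 0 of 34 genes, against 2 of all probes (0.0313%), with 1 gene and 96 of all probes at an unadjusted p under 0.05. The widest differences were -0.11 ± 0.098 for SAH1 and 0.10 ± 0.040 for MUP3 (adjusted p = 1.000 for both), and 2 genes, MET16 and MET8, did not overlap, where 14.7% of all probes did not. Between bur2 and cho2 medium, 0 of 34 genes were called (0% of all probes), with 4 genes and 532 of all probes at an unadjusted p under 0.05. The 4 were CYS3 (0.18 ± 0.041), MUP3 (-0.14 ± 0.040), MET13 (0.26 ± 0.095) and SAM1 (0.11 ± 0.043), whose smallest adjusted p was 0.519. There 11 genes did not overlap, 4 higher and 7 lower in bur2 medium, where 28.4% of all probes did not (15.5% higher and 12.9% lower). Among any differences of the 6 media, an F test called 0 of 34 genes, against 1.02% of all probes, with 5 genes and 764 of all probes at an unadjusted p under 0.05. CYS3 had the smallest adjusted p of the 34, at 0.230.

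The labels describe the wild-type media of both sets alike, which allows a comparison across sets. Here 29 of the 34 genes read higher in wild-type medium of set 1 than in wild-type medium of set 2, against 3430 of all 6388 probes. The median difference was 0.050, against 0.0045 over all probes. Limma called 0 of 34, against 15 of all probes (0.235%), with 6 genes and 589 of all probes at an unadjusted p under 0.05, and 11 genes did not overlap, where 21.4% of all probes did not. The smallest p values belonged to MET31 (0.11 ± 0.037, adjusted p = 0.426), MET32 (0.10 ± 0.037) and MET14 (0.17 ± 0.065). With a replicate block in each set, 33 of all probes and 0 of the 34 genes were called. A comparison of all 6 arrays of set 1 with all 6 of set 2, added after the values were seen, called 4 of 34 genes, all higher in set 1, against 9.88% of all probes (5.28% higher in set 1). They were MUP1 (0.12 ± 0.023), MET32 (0.11 ± 0.022), MET8 (0.11 ± 0.026) and MET31 (0.088 ± 0.022), with adjusted p between 0.0207 and 0.0416. MUP1 read -0.091 and 0.0086 in cbf1 medium, -0.047 and 0.13 in npl3 medium and -0.092 and 0.090 in wild-type medium of set 1, against -0.20 and -0.067 in bur2 medium, -0.20 and -0.031 in cho2 medium and -0.22 and 0.017 in wild-type medium of set 2. On its first arrays MUP1 was higher in set 1 in all media, and on the second arrays cbf1 medium of set 1 lay below wild-type medium of set 2. MET31, MET32 and MET8 were near background, and the signal of the whole array was lower in set 2, which moves with this comparison and cannot be told apart from the set. The count was 0 to 10 with 1 array left out (10 without the first wild-type array of set 1, and 0 without any of 6 others, the first of cbf1, npl3 or wild-type set 2, the second of bur2, or either of cho2 medium), and 0 after median centring.

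Against the reference RNA, the list as a whole lay slightly low in every medium by the group means. On single arrays, its median was above 0 only on the second wild-type array of set 1 (0.020, against -0.050 on the first). Over the 6 media, limma called 25 of 34 genes, 21 lower and 4 higher than the reference by the labels' dyes, against 70% of all probes (35.6% lower and 34.4% higher). The median was -0.055 over the list and -0.0034 over all probes. The share of genes called was thus near that of all probes, and the share called lower was above it. After median centring 24 were lower and 2 higher, where 44.7% of all probes were lower and 28.9% higher. Over 9 ways of processing 16 to 24 were lower (16 of the 23 tested where the darkest 25% of probes were left out), against 29.6% to 44.7% of all probes. The reference came from 1 culture whose medium the labels do not describe, and its own spread is not part of this test.

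The lowest means belonged to CYS3 (-0.20 ± 0.012, SE, n = 12 arrays, adjusted p = 1.40e-06), SAM2 (-0.19 ± 0.021, adjusted p = 4.32e-05), MET13 (-0.17 ± 0.027) and GSH1 (-0.15 ± 0.021). CYS3 and GSH1 were below the reference on all 12 arrays, and SAM2 and MET13 on 11 of 12. All 4 were well above background, from 4.79 times for the dimmest array of MET13, and kept their sign and their call in all 9 ways of processing. By role, 5 of the 9 sulfate genes were lower, with MET10 at -0.11 ± 0.014 and MET22 at -0.11 ± 0.013, and 2, MET8 and MET16, were higher. Of the 5 methionine synthesis genes, 4 were lower and MET17 did not pass, at 0.025 ± 0.015. The result for MET17 depended on the processing. It was called higher with print-tip loess (0.10) and with the authors' log2 table (0.12), and read -0.014 after median centring, without a call. In transsulfuration and glutathione synthesis 3 of 5 were lower, in the AdoMet cycle 3 of 5, and in transport 3 of 4, with SAM3 at -0.12 ± 0.018. Of the 6 regulators, MET4 (-0.084 ± 0.012), MET28 (-0.12 ± 0.027) and MET30 (-0.062 ± 0.013) were lower, MET31 and MET32 higher, and CBF1 did not pass, at -0.019 ± 0.012. The result for CBF1 depended on the processing: it was called lower in 2 of the 9 ways. These were print-tip loess (-0.063) and the authors' log2 table (-0.069).

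The highest means were those of MET31 (0.14 ± 0.011), MET32 (0.12 ± 0.011), MET8 (0.077 ± 0.013) and MET16 (0.049 ± 0.0098). MET16 read 0.056 and 0.11 in cbf1 medium, 0.026 and 0.037 in npl3 medium and 0.046 and 0.11 in wild-type medium of set 1. It read -0.023 and 0.052 in bur2 medium, 0.022 and 0.094 in cho2 medium and 0.023 and 0.029 in wild-type medium of set 2. It was above the reference on 11 of 12 arrays. The probes of MET31, MET32 and MET8 were near background, that of MET16 was at 1.93 to 3.98 times in the dimmer channel, and MET8 and MET16 lost the call after median centring (adjusted p = 0.0603 and adjusted p = 0.0874).

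**Figure D4:**
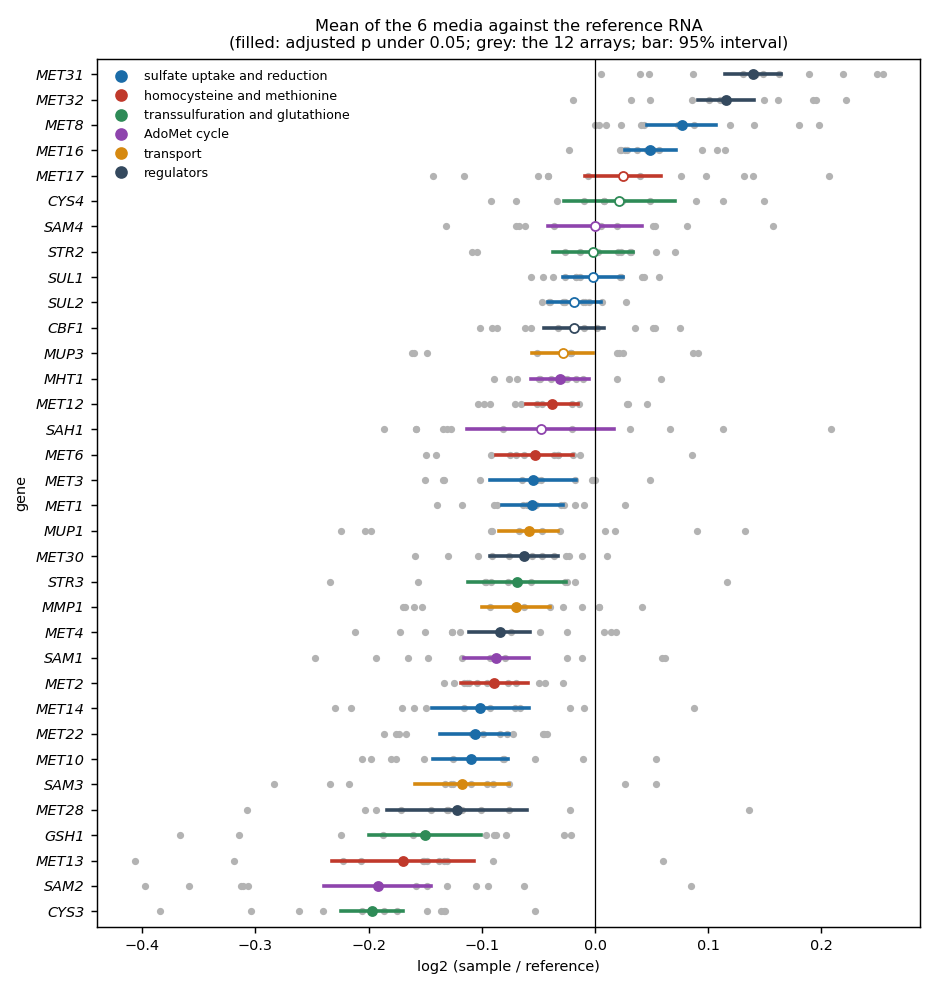
Rows are the 34 genes, ordered by the mean log2 ratio of the 6 media over the reference (horizontal axis), with the mean as a coloured circle (filled where the adjusted p was under 0.05), its 95% interval as a bar and the 12 arrays as grey points. MET31 is highest at 0.14 and CYS3 lowest at -0.20, and most circles lie left of 0.

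The array number coincides with the dye of the sample. It went with differences that for MET17 and SAM2 were wider than any difference of the 34 genes between a deletion-strain medium and its wild-type medium. The widest of the latter was 0.17, in cho2 medium. In a comparison added after the values were seen, 12 of 34 genes were called between second and first arrays, against 37.7% of all probes, 7 higher and 5 lower on the second arrays (20% and 17.7% of all probes). The methionine, S-methylmethionine and sulfhydrylase genes MUP1 (0.17 ± 0.023), MUP3 (0.12 ± 0.023), MMP1 (0.13 ± 0.026) and MET17 (0.18 ± 0.029) were higher on the second array in all 6 media. SAM1 (-0.15 ± 0.025), SAM2 (-0.23 ± 0.041), MET4 (-0.13 ± 0.023) and CBF1 (-0.11 ± 0.023) were lower on the second array in all 6. Since array number and dye run together, an effect of the dye and one of the culture cannot be told apart. Both arrays of a medium enter its mean, so that in a difference between media such an effect cancels where it is the same in both.

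**Figure D5:**
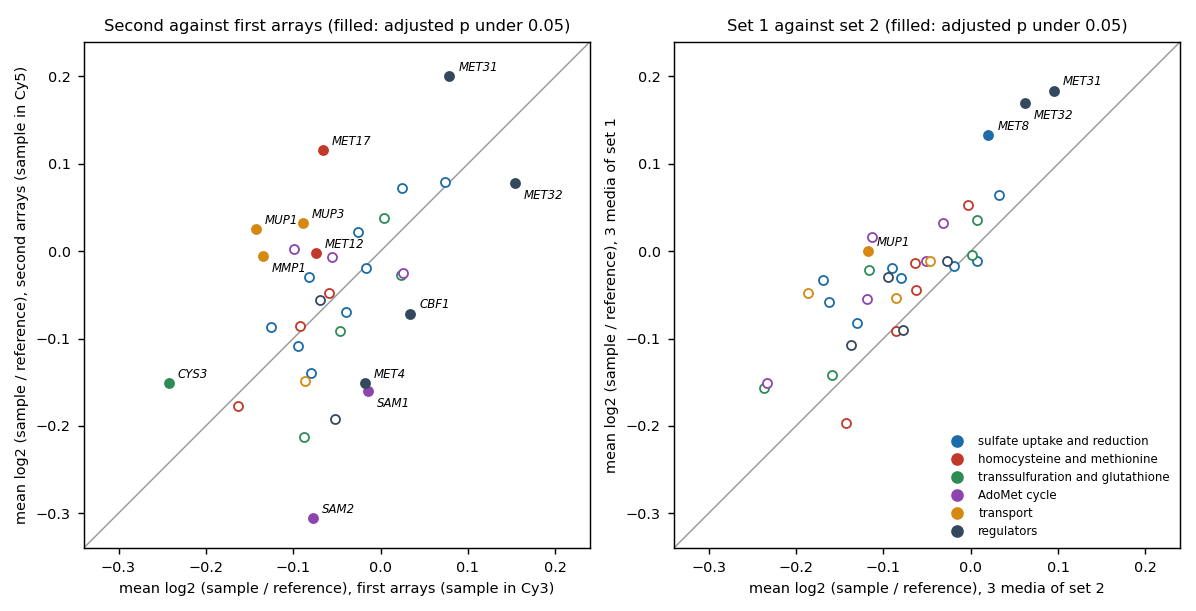
Each circle is 1 of the 34 genes, coloured by role and filled where the adjusted p was under 0.05, with mean log2 ratios of sample over reference on both axes. The left panel sets the second arrays (vertical) against the first (horizontal), where SAM2 lies farthest below the diagonal (-0.31 and -0.078) and MET17 farthest above it (0.12 and -0.066), and the right panel sets the media of set 1 (vertical) against those of set 2, where most circles lie above the diagonal.

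Of 19 further symbols of the same pathways that are not among the 34, 17 matched a probe. Among these were the sulfite reductase gene MET5, the homoserine synthesis genes HOM2 and HOM3 and the glutathione transporter gene OPT1. The symbols without a match, ECM17 and HGT1, are other names of MET5 and OPT1, so no gene of the list was missing. Limma called 0 of the 17 in each of the 4 deletion-strain media, with medians of -0.013 in cbf1 medium, 0.0075 in npl3 medium, -0.022 in bur2 medium and -0.0082 in cho2 medium. Against the reference, 10 were lower and 2 higher, from -0.24 for MET5 to 0.23 for IRC7, with a median of -0.10, where 70% of all probes were called (35.6% lower and 34.4% higher). Over the 12 arrays, the probes whose values ran most like those of MET17 were SCAB005224 and SCAB005464, which have no symbol, and those of NSE5, RPS12 and PMP1 (Pearson r from 0.943 to 0.958). These points share the arrays and their dye order, and none of the 34 genes was among the 5.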

How the data were processed

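The authors amplified, labelled and hybridised total RNA to 2-colour spotted arrays and deposited unnormalized scanner output, in which each spot has a mean intensity and a local background intensity per channel. They also deposited log2 ratios per spot, normalized by print tip, used here as an alternative. Its column for the first array of cho2 medium ran against the labels' dyes (r = -0.913 with the scanner values, against 0.901 to 0.973 in the other 11) and was turned. A table of the authors' own comparisons (limma 2.12.0, mean ratios and p-values) was not used.

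In limma 3.58.1 (R 4.3.3), intensities were corrected by normexp with an offset of 50 and normalized by loess within arrays, with 2776 control spots left out. The labels' dyes gave the direction of each ratio, sample over reference, and duplicate spots were averaged. A single fit over 12 arrays held 6 group means and a dye term (5 residual degrees of freedom, prior 3.29). P-values (two-sided) were adjusted by Benjamini-Hochberg over 6388 probes, with a limit of 0.05. The fit was tested on simulated data with independent spread and no dye effect. That does not test it under the dye differences and correlated arrays seen here. Comparisons within a set share their wild-type arrays. The labels do not pair array numbers across media, but within a set deviations of same-numbered arrays correlated across genes at r = 0.310 to 0.817, so a replicate block in each set was fitted too.

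The members and lists were chosen with earlier results of these data known. All 34 genes could be named, and array values were given for the 2 genes with the smallest p in each deletion-strain medium, for CBF1, MET4 and MET17, and for the 4 highest and 4 lowest means against the reference. The other array values (MUP1, and the wild-type arrays of SAH1 and MET28 in set 1) were chosen after they were seen. The number of arrays limits the precision. Alternatives were an offset of 10, background left in, median centring or print-tip loess, the authors' log2 table, leaving out the darkest 25% of probes, the dye term or each array, and the replicate block.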

Additional observations from a re-analysis of the deposited data

How the results depend on the processing

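The count of 0 of 34 genes called in each of the 4 deletion-strain media, between the media of a set, between the wild-type media and in the F test was the same under all 8 other ways of processing and with each of the 12 arrays left out. The counts over all probes were less settled: without 1 array they ranged from 0 to 36 in npl3 medium, 0 to 25 in bur2 medium, 0 to 2 in cbf1 medium, 0 to 1 in cho2 medium, 0 to 3 between cbf1 and npl3 medium, 0 to 9 between bur2 and cho2 medium, 6 to 161 between the wild-type media and 14 to 290 in the F test. With the paired fit, a replicate block in each set, the F test called 109 of all probes (65 without it) and the wild-type media 33 (15 without it), the sets 935 (631 without it), and 25 of 34 genes against the reference, as without it. Without the dye term the F test called 16 of all probes, and 106 were called with the deposited log2 values. Between cbf1 and npl3 medium the 2 probes fell to 1 with the deposited log2 table, the replicate block or the offset of 10, and to 0 with loess per print tip, median centring or no dye term, and between bur2 and cho2 medium the deposited log2 values gave 3.

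Median centring moved the median over the 34 genes in cho2 medium to 0.027, the genes called between sets to 0 and those called between second and first arrays to 26. With the deposited log2 table, which the authors corrected for gene-specific dye bias, these counts were 7 between sets and 3 between second and first arrays, and without the dye term the count between sets was 0. Over all probes, 277 were called between sets after median centring, 725 with the deposited log2 table and 99 without the dye term. Between second and first arrays, all probes were counted in the main fit only. Whether the counts of 26 and 3 differ from the share of all probes is therefore not known. With 1 array left out, the members called between sets ranged from 0 to 10 and all probes from 199 to 1288, and the medians over the 34 genes ranged from -0.046 to 0.022 in cbf1 medium, -0.022 to 0.035 in npl3 medium and 0.027 to 0.086 between the wild-type media. Those called between second and first arrays ranged from 11 to 13 (this count cannot be had without the dye term or with the replicate block), and those against the reference from 24 to 26 (4241 to 4468 of all probes). Apart from the array left out or the term dropped, the causes were not tested. Signal over background limits MET1, MET2, MET8, MET16, MET28, MET32, MHT1 and MUP3, above 2 times background in both channels on some arrays only, and SUL1, SUL2, MMP1 and MET31, above it on none. It also limits STR3, which was above it on all arrays but fell to 2.18 times.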
